A study of Mus musculus with 6 samples.

Results

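TRBV19 and TRBV29 are 2 of the 23 variable (V) genes of the T cell receptor β chain that the 6 libraries contain. They encode the chain segments known in mouse serology as Vβ6 and Vβ7. Members were all entries assigned to either gene whose complementarity-determining region 3 (CDR3), the loop that joins the V segment to the joining (J) segment and contacts the antigen, carried no stop or frame mark. They came to 19346 of 198807 entries and 49231 of 496196 reads. TRBV19 had 8707 entries with 21330 reads and TRBV29 had 10639 entries with 27901 reads. An entry is a clonotype of 1 library, defined by TRBV gene, TRBJ gene and CDR3 amino acids. Counted once over the 6 libraries there were 8319 TRBV19 and 10225 TRBV29 clonotypes.

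C57BL/6 mice carried MO4 tumors, a B16F10 melanoma line that expresses ovalbumin, in both hindlimbs from day 0, with 100000 cells per site. All mice received IFN-α-iPSC-pMC, which are interferon-α-producing myeloid cells grown from induced pluripotent stem cells, at 1000000 cells a time beside the right tumor. The days were 5 to 7, then 12 and finally 13, and RNA was taken on day 14. The right tumor is the treated tumor and the left one, in the same animals, the distant tumor, so distant tumor and spleen also come from treated mice and no untreated animal is part of the comparison. Each of the 3 tissues has 2 libraries, numbered 1 and 2. With 2 mice in the series, libraries of the same number were taken to come from the same mouse and are called mouse 1 and mouse 2. The files hold only receptor sequences, so tissue identity could not be checked against marker genes, and the age of the mice is not in the labels.

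The 4 tumors held 42320 to 83171 unmarked reads in 7539 to 12761 clonotypes, and the 2 spleens 96907 and 135599 reads in 64726 and 92233 clonotypes. A clonotype with no read in a library could still make up to 0.00709% of it in distant tumor 2 and up to 0.00221% in spleen 2, the share of 3 reads. Intervals below are Wilson 95% intervals and, like this limit, cover counting error only, since no molecular identifiers are named and PCR copies of a molecule count as reads. RNA of whole tissue was used, so more cells of a clone and more receptor RNA per cell cannot be told apart.

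A β chain is assembled in the thymus by joining 1 V, 1 D and 1 J segment with trimming and addition of bases, so nearly every T cell clone has its own CDR3, and copies of that CDR3 trace the clone. The V segment itself supplies the loops that mainly contact the presenting molecule. A few unconventional T cells favour certain V segments: mouse mucosal-associated invariant T (MAIT) cells, which see vitamin B metabolites on MR1, often use Vβ6 or Vβ8, and natural killer T (NKT) cells, which see lipids on CD1d, often use Vβ8, Vβ7 or Vβ2. Conventional CD4+ and CD8+ T cells use the same segments, and these cells are told apart by the α chain, which was not measured here. No cell type is therefore assigned to any clone.

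In the GENCODE M21 annotation of GRCm38, TRBV19 is on chromosome 6 at 41178375 to 41179048, on the plus strand, with exons at 41178375 to 41178637 and 41178746 to 41179048. TRBV29 is at 41271394 to 41271881 on the same strand, with exons at 41271394 to 41271451 and 41271587 to 41271881. It is typed there as a functional V gene, whereas the RefSeq gene table used here types it as a V segment pseudogene. The 3′ ends of the 2 coding exons are shown because they are the germline start of every CDR3 described below. The capitals mark the codon of the conserved cysteine.
TRBV19, chr6:41179033-41179048: TGTgccagcagtatag
TRBV29, chr6:41271865-41271881: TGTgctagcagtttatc
They translate to CASSI for TRBV19 and CASSL for TRBV29, so an untrimmed junction shows isoleucine or leucine as residue 5. The J segments that the results turn on follow, each from its start to the codon of the conserved phenylalanine, in capitals, where the CDR3 ends.
TRBJ1-4, chr6:41534811-41534833: tttccaacgaaagattatttTTC
TRBJ2-1, chr6:41542754-41542775: taactatgctgagcagttcTTC
TRBJ2-3, chr6:41543223-41543243: agtgcagaaacgctgtatTTT
TRBJ2-7, chr6:41543810-41543828: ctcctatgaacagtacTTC
These encode SNERLFF, NYAEQFF, SAETLYF and SYEQYF, the CDR3 ends by which the J partner of a printed clone can be recognised.

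TRBV19 was most used in treated tumor 1, and the other 3 tumors lay below both spleens. It took 8.30% of the reads of treated tumor 1 and 2.99% of treated tumor 2, against 2.83% and 2.46% of distant tumors 1 and 2 and 3.91% and 4.13% of spleens 1 and 2. The intervals are narrow, for example 8.11% to 8.49% in treated tumor 1, so the spread between the tumors is far wider than counting error. Counted as clonotypes, each once, the shares were 7.08% and 3.71% in the treated tumors, 4.25% and 3.58% in the distant tumors and 4.20% and 4.29% in the spleens, again with treated tumor 1 alone above the rest.

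TRBV29 stood highest in distant tumor 1. Its share of reads was 9.46% there and 4.40% in distant tumor 2, 4.92% and 3.73% in treated tumors 1 and 2, and 4.83% and 5.46% in spleens 1 and 2. The corresponding clonotype shares were 7.12% and 4.76%, 4.88% and 4.03%, and 5.04% and 5.59%. Without its most abundant clonotype, TRBV29 made up 3.66% of the reads of distant tumor 1, within the range of the other tumors at 3.35% to 4.16%. The same step left TRBV19 at 6.34% in treated tumor 1 and at 2.37% to 2.58% in the other tumors. It removes far more reads from a tumor than from a spleen, so these values are not compared with the spleens.

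**Figure D1:**
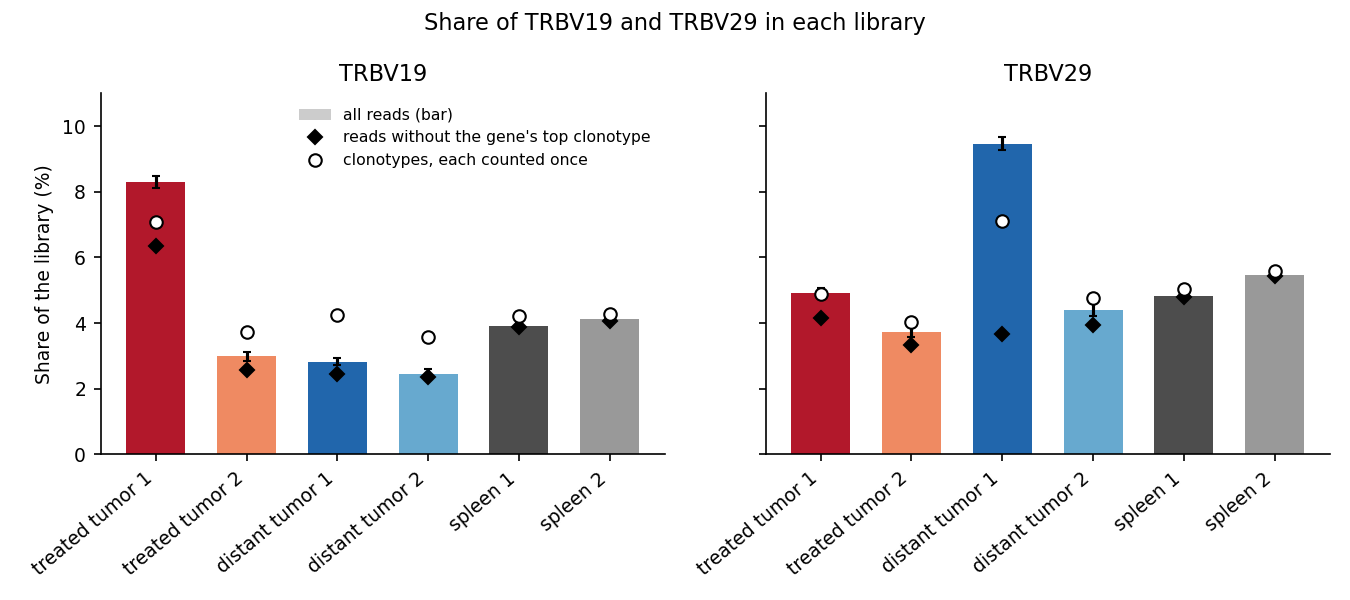
Share of TRBV19 (left) and TRBV29 (right) in each of the 6 libraries, in percent. Bars give all unmarked reads with Wilson 95% intervals, diamonds the reads without the gene's most abundant clonotype, and open circles the clonotypes counted once. TRBV19 reaches 8.30% in treated tumor 1 and stays above the other libraries without its top clonotype, while the diamond of TRBV29 in distant tumor 1 drops from 9.46% to 3.66%.

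The design asks whether the injected tumor differs from the tumor at a distance, and neither gene passed the test. Treated over distant, TRBV19 had a log2 fold change of 1.10 (SE 0.50) with an adjusted p of 0.313, and TRBV29 one of -0.68 (SE 0.44) with an adjusted p of 0.360, in the quasi-likelihood test of edgeR, with p adjusted over 23 genes after Benjamini and Hochberg. In both numbers TRBV19 was higher and TRBV29 lower in the treated tumor. The differences were 5.47 and 0.531 percentage points for TRBV19 and -4.54 and -0.674 for TRBV29, so number 1 carried most of each. Without treated tumor 1 the TRBV19 value was 0.18, and without distant tumor 1 the TRBV29 value was -0.03. The test called 0 of 23 TRBV genes (0%), with 3 at an unadjusted p under 0.05, and DESeq2 called 1, which was neither of the pair. The median log2 fold change of all 23 genes was 0.35 under scaling by the library total and 0.05 with DESeq2's size factors.

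Tumors against spleens gave values near 0 for both genes. TRBV19 had a log2 fold change of -0.06 (SE 0.43, adjusted p = 0.963) and TRBV29 one of 0.09 (SE 0.38, adjusted p = 0.963) by the same edgeR test. Again 0 of 23 genes were called (0%), with 4 at an unadjusted p under 0.05 and 0 by DESeq2. The 2 comparisons share the tumor libraries. A p above the threshold with 2 libraries a group does not show equal usage.

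The other V genes known from NKT and MAIT cells, TRBV1 (Vβ2) and TRBV13-1, TRBV13-2 and TRBV13-3 (the Vβ8 family), gave 0 of 4 calls in either comparison. TRBV1 took 2.95% to 5.55% of the reads of the tumors and 8.51% and 7.16% of those of the spleens, so every tumor lay below both spleens (log2 fold change -0.88, SE 0.27, edgeR adjusted p = 0.185). TRBV13-2, the most used V gene of treated tumor 1 and of both spleens, ranged from 8.09% to 14.3%. TRBV13-1 lay between 3.45% and 7.55% and TRBV13-3 between 2.24% and 7.59%. Members of the TRBV13 family are close in sequence, so reads may be split between them.

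Across the 6 libraries, TRBV12-2, TRBV15 and TRBV23 had the pattern of log2 shares most like TRBV19, with Pearson's r of 0.917, 0.813 and 0.723. For TRBV29 they were TRBV12-1, TRBV23 and TRBV17, with r of 0.975, 0.423 and 0.373. TRBV12-1 and TRBV29 both peaked in distant tumor 1, where TRBV12-1 took 24.4% of the reads against 1.44% to 5.37% elsewhere. Over the 5 libraries without distant tumor 1 the r was 0.914, and that of TRBV19 with TRBV12-2 without treated tumor 1 was 0.690. The shares of a library sum to a fixed whole, so these values are descriptive. TRBV19 and TRBV29 were unlike each other, with r of -0.0952.

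Within each gene, a few clones held much of the reads in tumors but not in spleens. The most abundant TRBV19 clonotype took 25.2% and 14.1% of the gene's reads in treated tumors 1 and 2, 13.7% and 3.65% in distant tumors 1 and 2, and 0.686% and 2.00% in spleens 1 and 2. All 4 tumors were above both spleens (exact permutation p = 0.200, two-sided). For TRBV29 the values were 16.2% and 10.6% in the treated tumors, 63.7% and 11.2% in the distant tumors, and 0.535% and 0.783% in the spleens, with the same order (exact permutation p = 0.267, two-sided). Over the 5 most abundant clonotypes TRBV19 held 34.0% ± 13.4 of its reads in the 4 tumors (mean ± SD) and 3.19% ± 1.45 in the 2 spleens. TRBV29 held 42.8% ± 17.2 and 2.26% ± 0.295. Both gave an exact permutation p of 0.0667, the smallest that 4 against 2 allows. Tumors of the same mouse are not independent, and the number of T cells behind a library is not known.

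**Figure D2:**
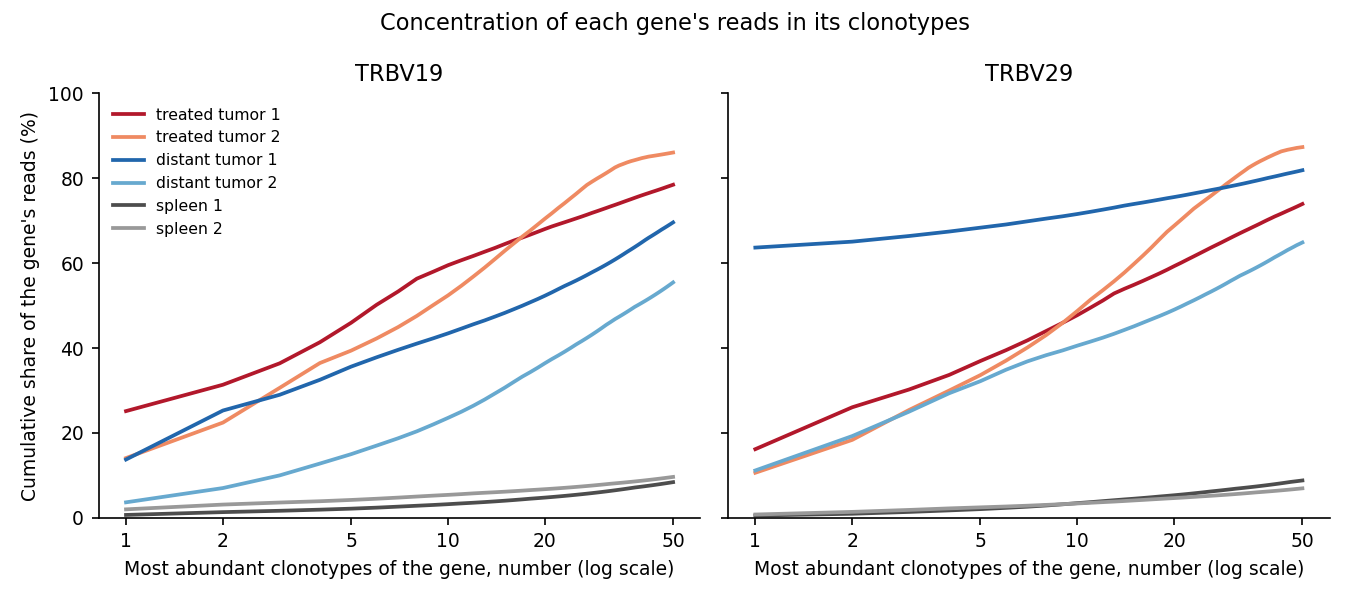
Cumulative share of the reads of TRBV19 (left) and TRBV29 (right), in percent, against the number of the gene's most abundant clonotypes on a log axis, 1 line per library. The spleen lines stay lowest throughout, and the TRBV29 line of distant tumor 1 starts at 63.7%.

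Drawn to an equal 1040 reads of the gene, TRBV19 held 230.2 and 192 clonotypes in treated tumors 1 and 2, 275 and 370 in distant tumors 1 and 2, and 921 and 929 in the spleens. Drawn to 1863 reads, TRBV29 held 353 and 277 clonotypes in the treated tumors, 305 and 492 in the distant tumors, and 1552 and 1637 in the spleens. In both genes every tumor had fewer clonotypes than either spleen (exact permutation p = 0.0667, two-sided, the smallest possible). The treated tumors were below the distant tumors for TRBV19, while treated tumor 1 and distant tumor 1 were in the opposite order for TRBV29.

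Clonotypes at 0.1% or more of a library numbered 10 for TRBV19 and 8 for TRBV29 in treated tumor 1. In treated tumor 2 they numbered 4 and 10, in distant tumor 1 they numbered 3 each, and in distant tumor 2 there were 0 and 6. Neither gene had any in a spleen. Each spleen held only 4 such clonotypes of any V gene, so this does not set the 2 genes apart. Over all V genes the treated side had 133 (mouse 1) and 190 (mouse 2), and the distant side 71 and 100. In treated tumor 1 the 10 TRBV19 clones carried 59.5% of the gene's reads.

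The largest TRBV19 clone is shown first because its reads came almost entirely from 1 tumor of 1 mouse. It paired with TRBJ2-1 and had 1736 reads in treated tumor 1, 0 in each of the other 3 tumors, and 1 and 0 in spleens 1 and 2.
TRBV19/TRBJ2-1: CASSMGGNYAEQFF
It made up 2.09% of treated tumor 1 (1.99% to 2.19%), where it was the second largest clonotype of any V gene. Against the limit of 3 reads in distant tumor 1 it was at least 572-fold higher. Around it, 49 clonotypes of the same V, J and length with 1 changed residue held 124 reads, which is 7.14% of its own.

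The largest TRBV29 clone showed the opposite placement. A TRBV29/TRBJ2-1 clone of 15 residues had 4949 reads in distant tumor 1, 0 in each of the other 3 tumors, and 2 in each spleen. It was 6.02% of distant tumor 1 (5.86% to 6.19%), also the second largest clonotype of its library, and at least 1670-fold higher there than the limit in treated tumor 1. It had 73 variants at 1 residue with 360 reads, 7.27% of its own.

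Other clones were large in both tumors of a mouse. The following examples of 14 or fewer residues are shown together because each had many reads in a treated and a distant tumor. The 2 clonotypes found in all 6 libraries also did and are printed further on.
TRBV19/TRBJ1-4, mouse 1: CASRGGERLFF
TRBV19/TRBJ1-1, mouse 1: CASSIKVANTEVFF
TRBV19/TRBJ1-2, mouse 1: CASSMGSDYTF
TRBV19/TRBJ2-7, mouse 2: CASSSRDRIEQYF
TRBV29/TRBJ1-3, mouse 1: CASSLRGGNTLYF
TRBV29/TRBJ2-7, mouse 2: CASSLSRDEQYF
TRBV29/TRBJ2-7, mouse 2: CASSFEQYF
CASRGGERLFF had 343 reads in treated tumor 1 and 319 in distant tumor 1, with 0 in the other 4 libraries, and its shares of 0.412% and 0.388% did not differ beyond counting error (Fisher's exact test, adjusted p = 0.466). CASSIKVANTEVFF was 6.74-fold higher in treated tumor 1 than in distant tumor 1, with 348 against 51 reads. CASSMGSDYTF went the other way, with 48 and 268 reads and a share 5.65-fold higher in distant tumor 1. The 3 clones thus took 3 different courses in the same pair of tumors.

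The 2 TRBV29 clones of mouse 2 printed above were close in level between the tumors, which was not so for most. Among the 11 TRBV29 clonotypes tested with reads in both tumors of mouse 2, 8 differed (Fisher's exact test, adjusted p under 0.05). That is 72.7%, beside 70.8% of all such clonotypes. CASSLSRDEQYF had 222 reads in treated tumor 2, 151 in distant tumor 2 and 12 in spleen 2, which is 0.396%, 0.357% and 0.00885% (Fisher's exact test between the tumors, adjusted p = 0.355). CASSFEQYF, a CDR3 of only 9 residues, had 162, 107 and 27 reads in the same libraries (Fisher's exact test, adjusted p = 0.304). Both were at 0 reads in all 3 libraries of mouse 1. The TRBV19 clone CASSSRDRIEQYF had 137 reads in treated tumor 2, 35 in distant tumor 2 and 112 in spleen 2, where it ranked 5 among all clonotypes. Its share was 2.96-fold higher in treated than in distant tumor 2 and nearly the same in distant tumor 2 and spleen 2, at 0.0827% and 0.0826%.

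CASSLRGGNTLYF, the TRBV29/TRBJ1-3 clone of mouse 1, had 141 reads in treated tumor 1, 103 in distant tumor 1 and 25 in spleen 1, where it led the gene. Its treated share was 1.35-fold the distant one (Fisher's exact test, adjusted p = 0.0220). By contrast the leading TRBV29 clone of treated tumor 1 was nearly restricted to it.
TRBV29/TRBJ2-7: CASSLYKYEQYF
This clone had 662 reads in treated tumor 1, 4 in distant tumor 1, 5 in spleen 1 and 1 in spleen 2, a 163-fold difference in share between the tumors. Among TRBV19 clones, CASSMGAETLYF with TRBJ2-3 had 140 reads in treated tumor 2 and 0 in the other 5 libraries.

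Other leading clones added further patterns. TRBV19/TRBJ2-1 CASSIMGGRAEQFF had 317 reads in treated tumor 1, 21 in distant tumor 1 and 0 elsewhere, a share 14.9-fold higher in the treated tumor. TRBV29/TRBJ1-3 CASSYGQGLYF had 24, 109 and 17 reads in treated tumor 1, distant tumor 1 and spleen 1, so its share was 4.60-fold higher in the distant tumor. A TRBV29/TRBJ1-6 clone of 15 residues was the largest of the gene in both distant tumor 2 and spleen 2, with 208 and 58 reads, and had 147 in treated tumor 2. Another clone of the same V, J and length had 404 reads in treated tumor 1 and 0 elsewhere. TRBV29/TRBJ2-4 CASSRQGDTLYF had 81 reads in distant tumor 2 and 10 in spleen 2 but 0 in treated tumor 2.

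In the library where each clone was largest, its J and CDR3 were looked for under other V genes, since a read given to the wrong V would appear there. For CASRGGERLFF they were found under TRBV4 with 1 read and for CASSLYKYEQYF under TRBV2 with 1 read. No other clone printed by its letters above had such a match.

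Each gene had exactly 1 clonotype in all 6 libraries, and these are shown as the members that both mice share in every tissue.
TRBV19/TRBJ1-4: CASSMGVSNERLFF
TRBV29/TRBJ2-7: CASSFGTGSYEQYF
In mouse 1 the TRBV19 clonotype had 292 reads on the treated side, 82 on the distant side and 3 from spleen, and in mouse 2 it had 44, 3 and 17. The TRBV29 clonotype had 171, 41 and 6 reads in mouse 1 and 27, 2 and 13 in mouse 2, in the same order of tissues. In shares, the TRBV19 clonotype was 3.52-fold and 11.1-fold higher in the treated than in the distant tumor of mice 1 and 2, and the TRBV29 clonotype 4.12-fold and 10.2-fold. Fisher's exact test gave adjusted p values of 5.87e-27 and 1.11e-07 for the first and 1.12e-18 and 5.09e-05 for the second. They compare libraries, with 2 mice, and the distant tumor 2 values rest on 3 and 2 reads. A relative of the TRBV29 clonotype, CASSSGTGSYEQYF, with 1 changed residue and the same J, had 79 and 82 reads in treated and distant tumor 1 and 2 reads in spleen 1, and none in mouse 2.

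Clonotypes with at least 10 reads in both tumors of a mouse together were tested. Nearly every member was called, as was nearly every clonotype of any V gene. A clonotype found in only 1 of the tumors was always called at this minimum, so the shares called are largely set by the filter. In mouse 1, 225 of 239 member clonotypes were called by Fisher's exact test at an adjusted p under 0.05, where 95.7% of all 2257 were. Of the members 134 were higher in treated tumor 1, against 54.2% of all clonotypes, and 91 in distant tumor 1, against 41.6%. In mouse 2, 105 of 113 were called, where 94% of all 1113 were, with 63 higher in treated tumor 2 (background 48.2%) and 42 higher in distant tumor 2 (background 45.7%). In percent, 94.1% and 92.9% of the members were called, near the background in both mice. The lean to the treated side depended on the minimum of reads. At a minimum of 5 reads, 71 members were higher in treated tumor 2 and 110 in distant tumor 2. In mouse 1 the counts were then 191 and 185. Fisher's exact test holds reads of 2 libraries and no spread between animals.

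Most of these clonotypes had reads in 1 of the 2 tumors only. In mouse 1, 113 of 239 were found in the treated tumor alone, 83 in the distant tumor alone and 43 in both. Over all TRBV genes these were 1058, 839 and 360 of 2257 clonotypes. In mouse 2 the members had 50, 40 and 23 of 113, beside 407, 466 and 240 of 1113 over all TRBV genes. Tested among clonotypes with reads in both tumors, 27 of 43 members were called in mouse 1 (background 72.5%) and 14 of 23 in mouse 2 (background 70.8%), a difference that was not tested. The 20 and 12 that were higher in the treated tumor are 46.5% and 52.2% of the members, beside 45.6% and 53.3% of all clonotypes with reads in both.

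**Figure D3:**
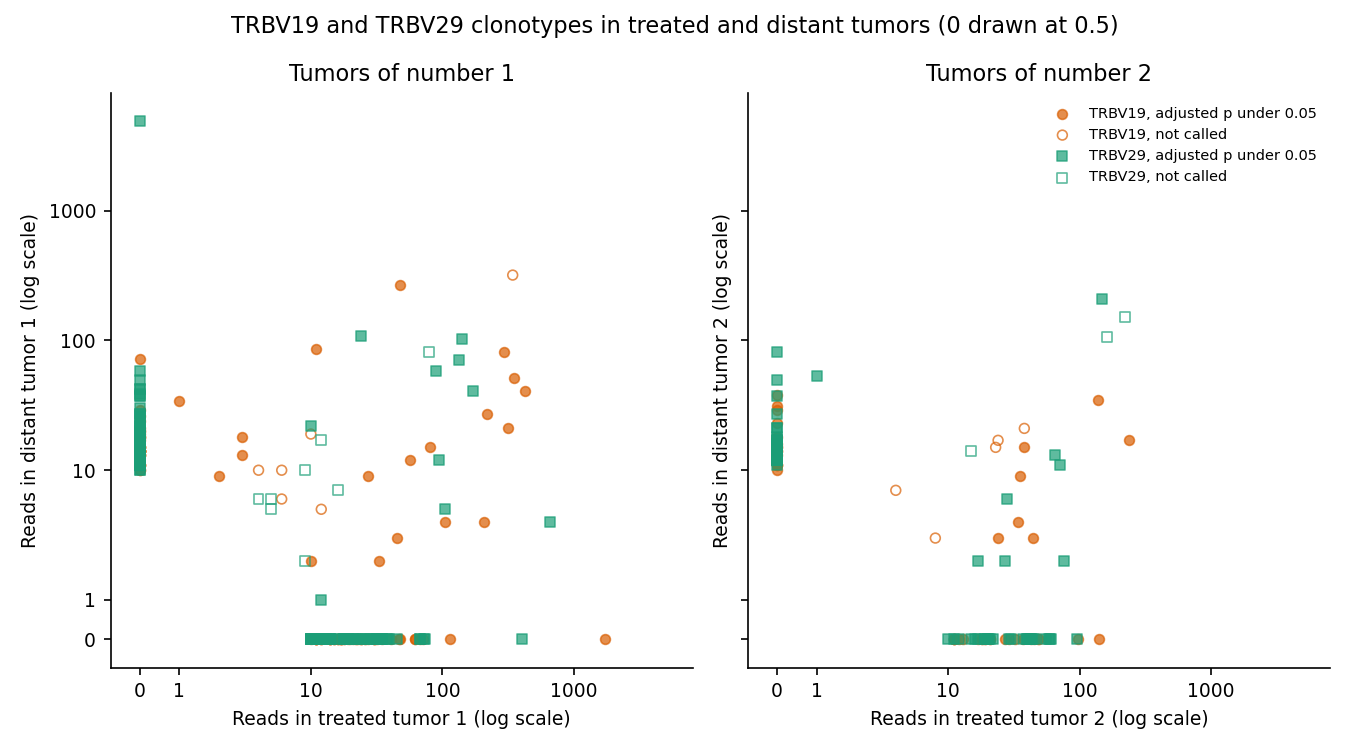
Reads of TRBV19 (circles) and TRBV29 (squares) clonotypes in the treated tumor (horizontal, log scale) and the distant tumor (vertical, log scale) of mouse 1 (left) and mouse 2 (right), with 0 drawn at 0.5. Filled symbols have an adjusted p under 0.05 by Fisher's exact test. Most points lie on the axes, and the square at the top left is the TRBV29 clone with 4949 reads in distant tumor 1 and 0 in treated tumor 1.

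The clonotypes found in both tumors of a mouse were few and large. In mouse 1, 43 TRBV19 clonotypes were shared by the tumors at any read count. They were 4.76% of the clonotypes but 38.3% of the gene's reads in the treated tumor, and 9.03% and 47.1% in the distant tumor. In mouse 2, 14 shared clonotypes carried 38.7% of the treated and 14.5% of the distant reads. TRBV29 shared 26 clonotypes in mouse 1, with 39.0% of the treated and 7.54% of the distant reads, and 18 in mouse 2, with 40.3% and 31.0%. Shared clonotypes of the other TRBV genes held 39.7% of their treated and 49.7% of their distant reads in mouse 1. In mouse 2 they held 43.6% and 29.1%.

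Tumors of 1 mouse shared more clonotypes than tumors of different mice. At an equal 1040 TRBV19 reads, the tumors of mouse 1 shared 21.4 clonotypes and those of mouse 2 13.4, whereas tumors of different mice shared 2.50 to 6.70. At 1863 TRBV29 reads, the tumors of a mouse shared 17.2 and 17.3, and tumors of different mice 1.00 to 2.08. Between tumor and spleen, TRBV29 shared 24.1 ± 11.4 clonotypes within a mouse (SD, n = 4 pairs) and 7.10 ± 2.71 between mice (SD, n = 4 pairs), and TRBV19 14.0 ± 5.45 and 4.38 ± 0.695. The ranges of TRBV29 overlapped, since treated tumor 2 shared 9.25 with its own spleen and distant tumor 2 shared 10.4 with spleen 1. Pairs of libraries share members, so no test was made. Of all TRBV19 clonotypes 95.97% were found in 1 library, and of TRBV29 96.5%.

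**Figure D4:**
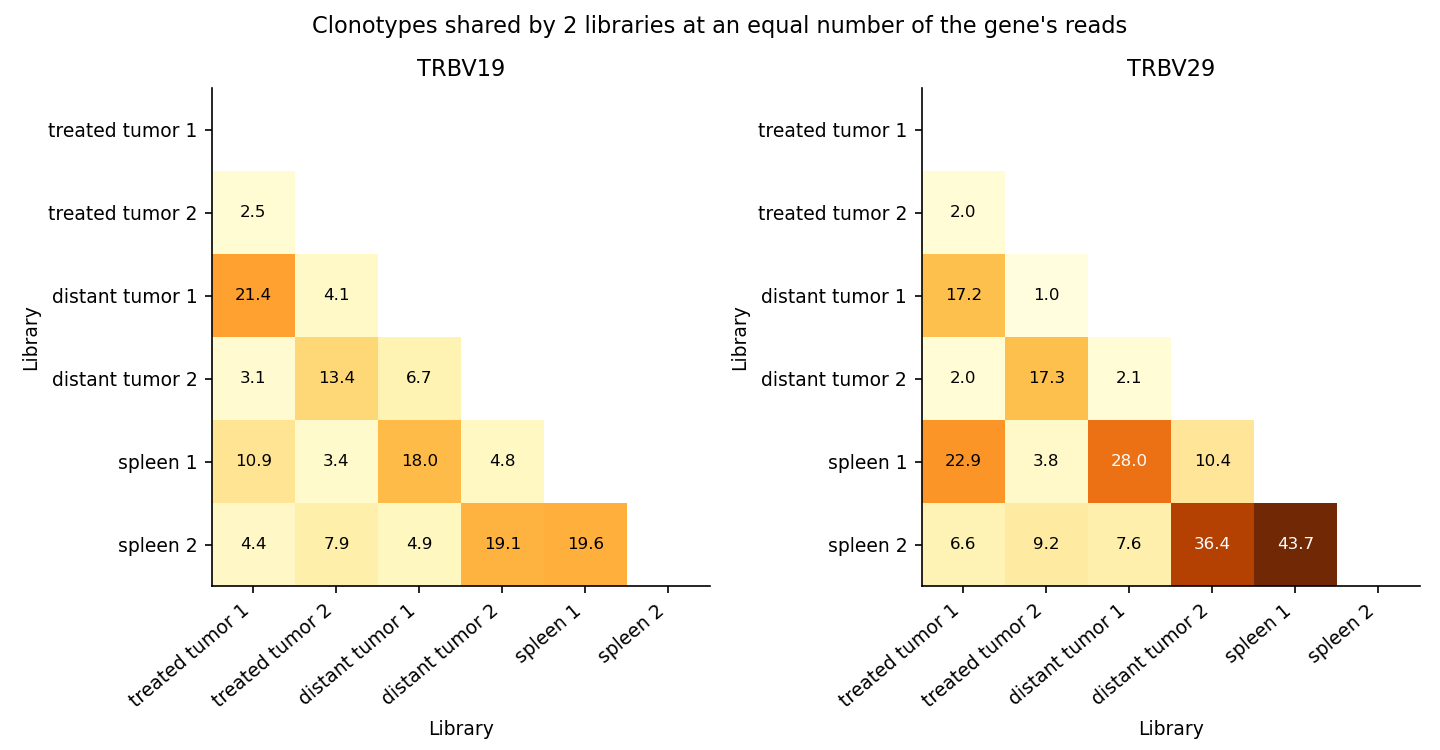
Clonotypes of TRBV19 (left, 1040 reads per library) and TRBV29 (right, 1863 reads per library) shared by each pair of libraries, as the mean of 100 draws. Darker cells hold more. Among pairs of tumors, those of the same number share 13.4 to 21.4 clonotypes and those of different numbers 1.00 to 6.70.

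In the spleens both genes paired most often with TRBJ2-7. Of the TRBV19 clonotypes, TRBJ2-7, TRBJ2-1 and TRBJ1-1 were the 3 commonest partners, with 17.2%, 11.1% and 11.6% in spleen 1 and 18.1%, 11.7% and 10.5% in spleen 2. TRBV29 paired with TRBJ2-7 in 17.6% and 16.7% and with TRBJ2-5 in 12.5% and 12.9% of its clonotypes. In the tumors the leading partner varied. For TRBV19 it was TRBJ2-1 in treated tumor 1 (23.3%), TRBJ1-4 in distant tumor 1 (16.8%) and TRBJ2-7 in treated and distant tumor 2 (17.9% and 20.5%). For TRBV29 it was TRBJ2-7 in 3 tumors (26.5%, 29.9% and 19.3%) and TRBJ2-1 in distant tumor 1, with 49.1% of clonotypes and 75.0% of reads. Of these 5826 TRBJ2-1 reads, 4949 came from 1 clone, so the read share is largely that of the clone. How far variants of the clone add to the 392 TRBJ2-1 clonotypes there was not tested.

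Set beside the other 21 TRBV genes of the same library, and counting clonotypes once, TRBV19 had a higher share of TRBJ1-4 in 6 of 6 libraries. It used TRBJ1-4 in 12.4% and 11.1% of its clonotypes in treated tumors 1 and 2, 16.8% and 7.30% in distant tumors 1 and 2, and 7.86% and 7.10% in spleens 1 and 2. The other genes used it in 6.20% and 4.46%, 4.76% and 6.30%, and 6.05% and 6.07%. The mean difference was 4.78 ± 4.37 percentage points (SD, n = 6), and the intervals of TRBV19 and the other genes were apart in 5 of 6 libraries, distant tumor 2 being the exception. TRBJ1-2 and TRBJ2-7 were less used by TRBV19 in 6 of 6 libraries, by -1.34 ± 0.519 and -3.22 ± 3.61 percentage points (SD, n = 6). For TRBJ1-2 the intervals overlapped in every library except spleen 2. For TRBJ2-7 the shares were nearly equal in treated tumor 2 (17.86% against 17.96%) and distant tumor 2 (20.54% against 20.65%).

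TRBV29 had a lower share of TRBJ2-3 in 6 of 6 libraries. Its clonotypes used TRBJ2-3 in 5.94% and 3.62% of cases in treated tumors 1 and 2, 4.39% and 4.67% in distant tumors 1 and 2, and 7.94% and 8.76% in spleens 1 and 2, where the other genes used it in 9.04% to 12.2%. The mean difference was -4.25 ± 2.64 percentage points (SD, n = 6), with the intervals apart in 6 of 6 libraries. For these 4 partners the exact sign-flip permutation test over libraries gave p = 0.03125 each, the smallest that 6 libraries allow. After Benjamini-Hochberg adjustment over 24 gene pairs it was 0.1875, so none passed. The test treats the 6 libraries as independent, though they come from 2 mice. TRBV19/TRBJ1-4, TRBV19/TRBJ1-2 and TRBV29/TRBJ2-3 kept their sign in every library by reads, without clonotypes of 1 read and with variants at 1 residue merged. TRBV19/TRBJ2-7 did so in 2 of these 3 and not by reads.

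**Figure D5:**
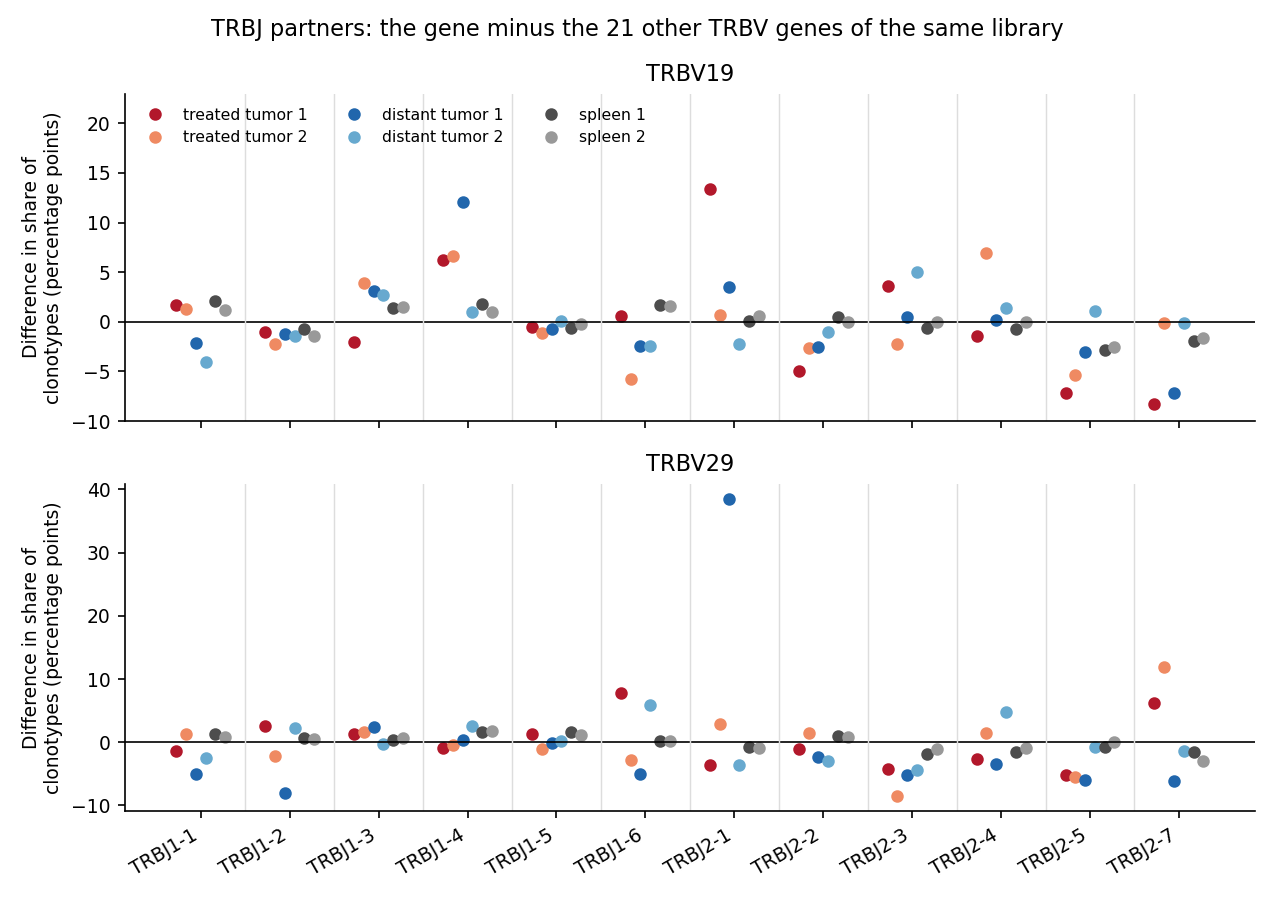
Share of clonotypes using each TRBJ gene within TRBV19 (top) or TRBV29 (bottom) minus the share within the other 21 TRBV genes of the same library, in percentage points, with 1 point per library. All 6 points of TRBV19 lie above 0 for TRBJ1-4 and all 6 of TRBV29 below 0 for TRBJ2-3, and the high point of TRBV29 at TRBJ2-1 is distant tumor 1.

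As read counts over V and J together, 243 pairs were tested with edgeR and 0 were called in either comparison (0% for treated against distant tumor and 0% for tumors against spleens). At an unadjusted p under 0.05 there were 18 and 33 pairs, and DESeq2 called 6 and 2, none of them with TRBV19 or TRBV29. All 24 pairs of the 2 genes were tested. The median log2 fold change of these 24 was 0.33 treated over distant and -0.63 for tumors against spleens, beside 0.22 and -0.56 for all pairs. TRBV19/TRBJ2-1 had a value of 2.84 (SE 0.97, edgeR adjusted p = 0.494) and TRBV29/TRBJ2-1 one of -3.41 (SE 1.42, adjusted p = 0.494) for treated over distant tumor, and these pairs contain the 2 largest clones. Against the spleens TRBV29/TRBJ2-3 had the lowest p of the 24, with -1.51 (SE 0.49, edgeR adjusted p = 0.264).

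Counting all clonotypes once, mean CDR3 lengths of tumors lay on both sides of those of spleens. TRBV19 CDR3s averaged 13.8 ± 0.106 residues in tumors (SD, n = 4) and 13.7 ± 0.00509 in spleens (SD, n = 2; exact permutation p = 0.667, two-sided), and TRBV29 CDR3s 13.8 ± 0.438 and 13.7 ± 0.00881 (exact permutation p = 0.667). Among TRBV19 clonotypes of 2 or more reads, all 4 tumors, at 13.76 to 13.94 residues, were above both spleens, at 13.68 each (exact permutation p = 0.0667, the smallest possible). For TRBV29 the tumors spanned 12.97 to 14.17 residues and the spleens 13.60 to 13.68. TRBV19 CDR3s were shorter than those of the other 21 genes in 6 of 6 libraries, by -0.172 ± 0.0511 residues (SD, n = 6; exact sign-flip permutation p = 0.03125, unadjusted). The sign-flip test treats the 6 libraries as independent, though they come from 2 mice. For TRBV29 the difference was -0.191 ± 0.385 residues (exact sign-flip permutation p = 0.3125). Its longest mean, 14.3 residues, was that of distant tumor 1, where 58.8% of its clonotypes had 15 residues, the length of the dominant clone.

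At residue 5 the germline isoleucine of TRBV19 stood in 35.4% and 36.3% of clonotypes in spleens 1 and 2 and in 22.8% to 34.1% in tumors. In treated tumor 1 methionine came second with 18.4%. The start CASSMG, singled out after its values were seen, occurred in 2.90% and 2.55% of the TRBV19 clonotypes of spleens 1 and 2, with 2.74% and 2.91% of the gene's reads. In the tumors it occurred in 7.75% and 3.21% of the clonotypes on the treated side and 2.31% and 2.70% on the distant side, those of mouse 1 first, so treated tumor 1 stood apart and distant tumor 1 lay below both spleens. With 1-residue variants merged, the 70 CASSMG clonotypes of treated tumor 1 became 35, or 4.69%. The other tumors then had 1.97% to 2.70% and spleens 1 and 2 had 2.90% and 2.56%. Among clonotypes of 2 or more reads, treated tumor 1 had 23, or 11.8%, beside 2.77% and 2.55% in the spleens. By reads over all clonotypes, CASSMG held 32.5% and 11.5% of TRBV19 in the treated tumors and 15.5% and 4.04% in the distant ones, mouse 1 first. Each tumor value by reads rests on few clones, such as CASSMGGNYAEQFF in treated tumor 1 and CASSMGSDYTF in distant tumor 1. In TRBV29 it was found in 0 clonotypes of the tumors and in 2 and 3 of the spleens.

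Fewer tumor than spleen clonotypes, counted once, kept the germline start, and the tissues were closer once clonotypes of 1 read were left out. CDR3s starting with CASS made up 58.2% ± 4.95 of TRBV19 clonotypes in the 4 tumors (mean ± SD) and 73.4% ± 0.639 in the 2 spleens. For TRBV29 they made up 58.3% ± 5.09 and 74.1% ± 1.40. In both genes all tumors lay below both spleens (exact permutation p = 0.0667, two-sided, the smallest possible). Among clonotypes of 2 or more reads (a setting added after the values were seen) the shares were 80.2% ± 3.01 and 81.7% ± 2.24 for TRBV19 (exact permutation p = 0.600) and 81.6% ± 0.791 and 82.7% ± 1.26 for TRBV29 (exact permutation p = 0.200). By reads over all clonotypes the order was the opposite, with 80.0% ± 4.73 in tumors and 76.6% ± 1.77 in spleens for TRBV19 (exact permutation p = 0.533) and 85.7% ± 5.38 and 77.2% ± 0.972 for TRBV29 (exact permutation p = 0.133). All 4 tumors lay above both spleens by this measure for TRBV29. Residues between the germline V and J parts numbered 5.68 ± 0.366 per TRBV19 clonotype in tumors and 4.35 ± 0.0153 in spleens, and by reads 3.99 ± 0.288 and 4.11 ± 0.00697. For TRBV29 they were 6.02 ± 0.337 and 4.32 ± 0.0107, and by reads 3.90 ± 0.306 and 4.11 ± 0.0106. Clonotypes of 1 read were 66.5% to 81.1% of the clonotypes of TRBV19 and 71.7% to 80.3% of those of TRBV29 over the 6 libraries. Whether they are rare clones or sequencing errors was not tested.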

How the data were processed

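T cell receptor β chains were read from total RNA of 2 treated tumors, 2 distant tumors and 2 spleens. Per the labels' protocols, an adaptor was ligated to double-stranded cDNA, the chains were amplified with adaptor and constant region primers, and paired reads of 300 bases were made on a MiSeq. Per the file headers, the authors deposited for each TRBV, TRBJ and CDR3 combination a read count, not normalized, and a percent. The deposited percent matched the count divided by unmarked reads to within 0.00499 percentage points, so that total was used. No source used here gives the aligner, germline reference, error handling or genome build of the authors, and positions are those of GENCODE M21 (GRCm38).

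Groups came from the titles. The members, lists and tests were chosen with earlier results of these data known. Reads per TRBV gene (23) and TRBV-TRBJ pair (243) were tested with edgeR 4.0.16 (quasi-likelihood, low-count filter, scaling by library total, 3 groups in 1 fit, Benjamini-Hochberg), and DESeq2 1.42.0, TMM factors, no filter, clonotypes counted once, the replicate block and leaving out each library were among the alternatives. Single values were compared by exact permutation tests, clonotypes with at least 10 reads by Fisher's exact test. P-values of the edgeR, DESeq2 and permutation tests measure the spread between these libraries only. Those of Fisher's exact test hold counting error of reads and no spread between libraries. Equal-depth values are means of 100 draws. Merging joined a clonotype to one at least 100 times larger that differed by 1 residue. The edgeR step was checked on simulated data. Log2 shares used a pseudocount of 0.5 reads.

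Named were, per gene and library, the 5 largest clonotypes, up to 5 in both tumors of a number, those in all 6 libraries, the 3 commonest J partners, J partners with 1 sign in 6 libraries, and the 3 most alike V genes. CDR3s over 14 residues are named by genes and length. Same-numbered libraries were taken as 1 mouse. As a check, deviations of log2 shares from the group means correlated over 22 genes at 0.319 (treated and distant tumor), 0.180 (treated tumor and spleen) and 0.0595 (distant tumor and spleen). Marked sequences were left out, 4.45% to 6.62% of reads. Analyses used Python 3.11.15, scipy 1.17.1 and R 4.3.3.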

Additional observations from a re-analysis of the deposited data

Results flagged for a closer look

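Among the 4 tumors, the 8.30% of reads that TRBV19 took in treated tumor 1 lay far from the other 3, at 2.46% to 2.99%, with a gap to the next value of 0.909 of the whole range. The TRBV29 share of reads in its most abundant clonotype, 63.7% in distant tumor 1, and in its 5 most abundant, 68.4%, also lay far from the other tumors, at 10.6% to 16.2% and 32.2% to 37.0%. Of 10 such quantities tested 3 were past Dixon's 95% limit for 4 values, where chance passes about 1 group in 20. The quantities are related, and the last 2 rest on the same clone.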

How the results depend on the processing

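Over 14 alternatives each, the treated over distant log2 fold change stayed positive for TRBV19 (0.18 to 1.65, adjusted p 0.0770 to 0.906) and negative for TRBV29 (-1.13 to -0.03, adjusted p 0.102 to 0.992), never past the threshold. With a replicate block for the pairing by number they were 0.99 and -0.63, and the block called no gene or pair. Tumors against spleens, TRBV19 turned positive with DESeq2 (0.16), clonotypes counted once (0.12), these after merging variants (0.14, added after seeing the data) and without the 10 most abundant clonotypes (0.22), and TRBV29 turned negative with clonotypes counted once (-0.0463) and these merged (-0.0073). Leaving out 1 library gave -0.52 to 0.22 and -0.24 to 0.31.

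TRBV genes called were 1 for treated against distant tumor with DESeq2, clonotypes counted once, these merged, and without the 10 most abundant clonotypes. For tumors against spleens they were 2 with clonotypes counted once, 4 with these merged, 1 with marked reads and 1 without the 10 most abundant. Leaving out 1 library gave 0 to 1 and 0 to 2. TRBV-TRBJ pairs called were 6 and 2 with DESeq2, and 0 to 0 and 0 to 22 on leaving out 1 library. The highest count came without treated tumor 1, a fit with only 1 treated tumor left, so no pair is singled out from it. J partners with 1 sign numbered 2 by reads for TRBV29, and on leaving out 1 library 3 to 6 for TRBV19 and 1 to 2 for TRBV29. Member clonotypes called in number 1 were 376 of 414 at a minimum of 5 reads (90.8%, all clonotypes 92.8%). At a minimum of 50 they were 34 of 36 (94.4%, all clonotypes 93.1%). In number 2 they were 181 of 190 (95.3%, all clonotypes 92.5%) and 17 of 20 (85.0%, all clonotypes 92.7%). With reads in both tumors they were 27 of 43 in number 1 (62.8%, all clonotypes 72.5%) and 14 of 23 in number 2 (60.9%, all clonotypes 70.8%). At a minimum of 5 reads, 71 members were higher in treated and 110 in distant tumor 2, the reverse of the main order. They were 37.4% and 57.9% of the members tested, beside 30.9% and 61.6% of all clonotypes. In number 1 they were 191 and 185 (46.1% and 44.7%, all clonotypes 45.9% and 46.9%). At a minimum of 50 reads the counts were 27 and 7 in number 1 and 13 and 4 in number 2. The share in the most abundant clonotype kept its direction in 9 of 9 alternatives per gene, its tumor minus spleen difference ranging from 9.15 to 16.3 and from 12.0 to 29.7 percentage points on leaving out 1 library. The cause of the other changes was not tested. With 2 libraries a group, no exact test of treated against distant tumor can go below p = 0.333.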

Other observations

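Marked TRBV19 sequences, with a stop or frame mark, were 14.9% of the gene's reads in treated tumor 2 and 5.19% to 9.17% in the other 5 libraries. A single TRBJ1-2 sequence held 136 of those 294 marked reads. For TRBV29 the marked share was 2.56% to 5.34%. In treated tumor 1, a pair of TRBV19/TRBJ2-3 clonotypes of 15 residues that differ by 1 residue were both large, with 429 and 208 reads. In distant tumor 1 they had 41 and 4 reads, in spleen 1 they had 1 and 10, and in spleen 2 they had 1 and 3. The order of the pair thus reversed between treated tumor 1 and spleen 1, on few spleen reads. The counts of spleen 2 are too low to order the pair. A TRBV19/TRBJ2-4 clonotype of 15 residues had 236 reads in treated tumor 2, 29 in distant tumor 1 and 17 in distant tumor 2, the only 1 of the 5 leading clonotypes of that gene in treated tumor 2 that also had reads in a tumor of the other number. Spleen 2 held a TRBV19/TRBJ2-7 clonotype, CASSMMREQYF, with 63 reads there, 18 in distant tumor 2, 1 in treated tumor 1 and 0 in treated tumor 2, distant tumor 1 and spleen 1. The 2 spleens, of different mice, shared 19.65 TRBV19 clonotypes at 1040 reads and 43.7 TRBV29 clonotypes at 1863 reads. A tumor and its own spleen shared at most 19.15 and 36.35. Spleens held more clonotypes than tumors at these depths, so the counts do not rank overlap. By reads, clonotypes shared by the spleens held 2.32% to 2.36% of TRBV19 and 3.52% to 3.57% of TRBV29 there. Those a tumor shared with its own spleen held 13.05% to 23.03% and 33.8% to 47.8% of the gene in the tumor. In the spleen they held 2.18% to 5.44% and 1.88% to 4.70%. Clonotypes that a tumor shared with the spleen of the other mouse held 1.13% to 7.93% and 2.59% to 32.6% of the gene in the tumor. The 32.6% was that of distant tumor 1 with spleen 2, close to the lowest TRBV29 value within a mouse.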
